A study of Danio rerio with 6 samples.

Results

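The keratins and the genes that build the surface layer of fish skin were followed in heads of zebrafish embryos. The members were the rows of the deposited table whose symbol begins with krt, together with a named set of cytokeratin, plakin, junction, annexin and epidermal regulator genes. This rule found 45 genes among 32057. They are 23 keratin genes (21 krt genes, cyt1 and cyt1l), 12 plakin and junction genes, 3 transcription factor genes, 6 genes of calcium-binding and secretory proteins, and krtcap2, which shares the letters krt but encodes no keratin. Of the names in the rule, 1 (evplb) had no row. One group was exposed to 500 µg/L of 6PPD, an antioxidant of tire rubber, from 10 hours post-fertilization (hpf) until the heads were taken at 2 days post-fertilization (dpf), and the control group was kept in the solvent DMSO. Each group had 3 biological replicates, each a pool of 150 heads, and all embryos of both groups received 0.003% of the pigment inhibitor PTU from 24 hpf and were kept at 28 °C in egg water with methylene blue. The labels give no strain and call the tissue brain, while the protocol describes whole heads, which carry skin. Poly(A) RNA was sequenced, and each gene has 1 FPKM value per library (fragments scaled by gene length and by the fragments mapped in the library), so levels may be compared between genes.

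Skin of the early zebrafish embryo has an outer layer, the periderm, over a basal layer. Keratins are filament proteins that pair as type I with type II and anchor at desmosomes, the cell junctions built from desmoplakin, plakoglobin and plakophilins. Periplakin and envoplakin are plakins that link filaments to the cell surface and shape the microridges of periderm cells, and the transcription factors p63 and Grainyhead-like direct formation and maturation of surface epithelium.

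Most members were lower after 6PPD, but the controls themselves differed widely and few members passed the test. Of 45 members, 38 had a mean of at least 1 FPKM and were tested. Of these 38, 33 (86.8%) had a negative log2 fold change, against 38.5% of all 15320 genes tested. Quantile normalization gave 35 negative members, median-ratio scaling 34 and TPM 31. The negative share of all genes is not given for these scalings. Their median log2 fold changes of all genes were 0.006, -0.0067 and 0.115. The median log2 fold change was -0.27 for the members and 0.06 for all genes tested. An excess of negative genes was not particular to the members. The negative share was above 38.5% in every comparison list described below except the neuron list, where it was 33.3%. Some of these lists are small, with 6 of 11 junction, 5 of 9 sensory placode and 3 of 3 mucous cell genes negative. In the muscle list 93.75% were negative (median -0.20), and in the tight junction list 85.7% (median -0.28). By limma at an adjusted p under 0.05, 2 members fell, the keratin gene krt1-19d and the anterior gradient gene agr1, which is 5.26% of the tested members where the background was 1.15% of all genes. By the same test 0 members were higher (background 2.26%), and at an unadjusted p under 0.05 the counts were 19 lower, or 50% of the tested members where the background was 6.93%, and 1 higher (background 13.4%). All 3 6PPD libraries lay below all 3 DMSO libraries for 11 members, or 28.9%, where the background was 9.18%, and above them for 2, tp63 and pkp3b (background 17.1%). With 1 library left out, neither krt1-19d nor agr1 was called in 5 of the 6 fits. Without DMSO replicate 3 the number of members called lower was 8. In that fit 2.13% of all genes were called lower, against 1.15% with all 6 libraries. In these pooled heads, fewer skin cells and less RNA per skin cell cannot be told apart.

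**Figure D1:**
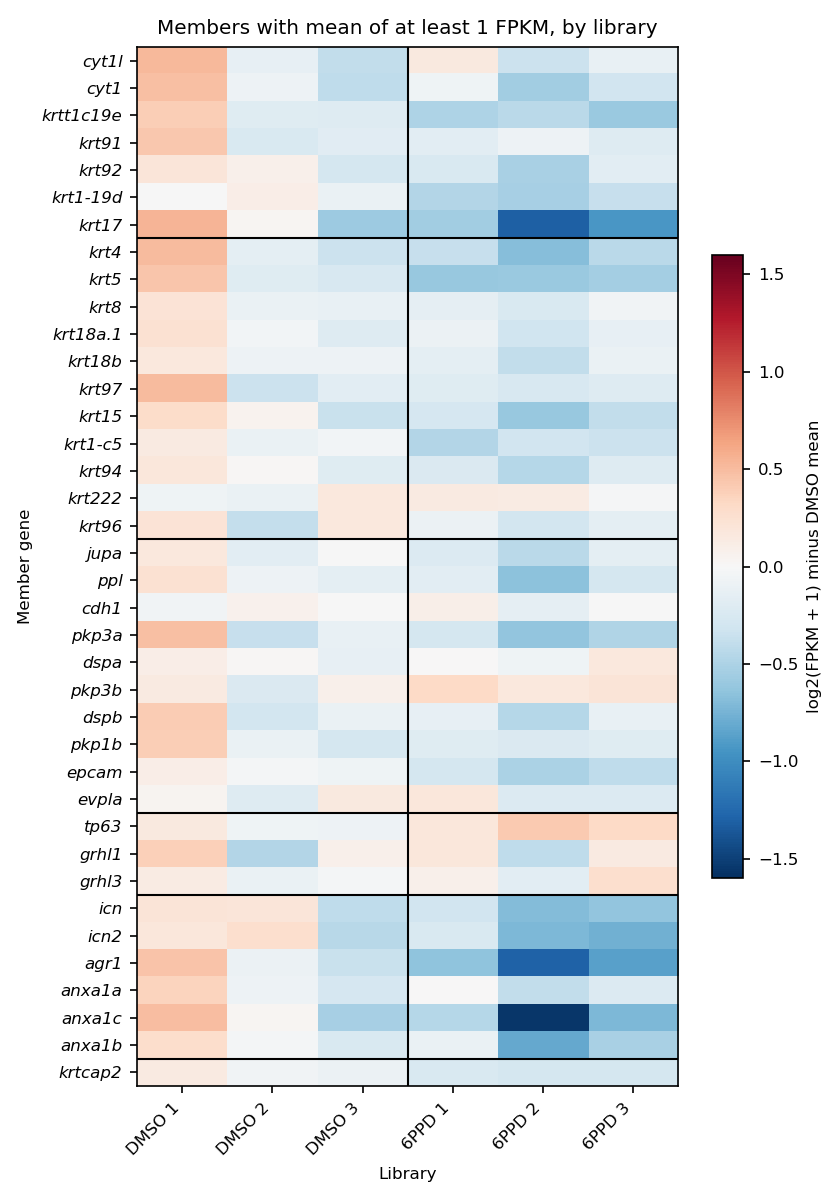
Level of each of the 38 tested members in each library, as log2(FPKM + 1) minus the mean of the 3 DMSO libraries (colour scale), with rows grouped by role and columns by library. The column of DMSO replicate 1 is red in most rows and that of 6PPD replicate 2 is the bluest of the 6PPD columns in most rows, while tp63 and pkp3b are red in the 6PPD columns.

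The spread between the control libraries was large and had a fixed pattern. The summed FPKM of the 45 members was 12289 in DMSO replicate 1, 8199 in replicate 2 and 7140.0 in replicate 3, and 7825, 6253 and 7065 in 6PPD replicates 1 to 3. Most of each sum came from krt4, cyt1 and cyt1l. Together these genes made up 8579, 5529 and 4668 FPKM in DMSO and 5527, 4121 and 4879 FPKM in 6PPD. In the sum of all members DMSO replicate 1 stood far above the other 5 libraries. DMSO replicate 2 lay above the 6PPD libraries by less, and DMSO replicate 3 lay within their range. DMSO replicate 1 was the highest control for 33 of 38 members (86.8%), where 28.9% of all genes tested had their highest control value there. The median ratio of the highest to the lowest control was 1.52 for the members and 1.28 for all genes tested, and within the 6PPD group these medians were 1.24 and 1.18. Replicate 2 was the lowest of the 6PPD libraries for 30 of 38 members (78.9%), against 43.6% of all genes tested. Over the 6 libraries the members took 1.413% to 2.60% of all FPKM, with the highest share in DMSO replicate 1. Relative to all 3 controls the 6PPD mean of the sum was 76.5%, and relative to DMSO replicates 2 and 3 alone it was 91.9%. Without DMSO replicate 1 the median log2 fold change was -0.16 for the members and 0.045 for all genes. Of 38 members 29 were then negative, and the negative share of all genes is not given for this fit. By limma 0 members were called in that fit, where 1.1% of all genes were called lower and 1.86% higher. At an unadjusted limma p under 0.05, 9 members were lower and 1 higher, and the background of that count is not given for this fit.

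Keratins were among the most abundant transcripts of these heads. The type II keratin gene krt4 (ENSDARG00000017624, chromosome 6, 39308498 to 39313027 on GRCz11), which is active in the superficial layer of larval skin, measured 3979.7, 2511 and 2209 FPKM in DMSO replicates 1 to 3 and 2178, 1755 and 2075 FPKM after 6PPD replicates 1 to 3. It ranked between 5 and 15 among the 32057 genes in every library. Its groups did not overlap, but DMSO replicate 3 and 6PPD replicate 1 were nearly equal. The means were 2899.9 ± 947 FPKM in the controls and 2003 ± 220.5 FPKM after 6PPD (SD, n = 3 per group). The log2 fold change was -0.49 ± 0.22 (moderated SE, on the log2(FPKM + 1) scale, as for every fold change here), limma adjusted p = 0.239, and it was -0.24 without DMSO replicate 1.

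Next in level came cyt1 and cyt1l, neighbours on chromosome 19 that encode type I cytokeratins named for the enveloping layer, the embryonic precursor of periderm. The level of cyt1 was 2333, 1577 and 1261 FPKM in DMSO replicates 1 to 3 and 1595, 1129 and 1349 FPKM after 6PPD replicates 1 to 3. The level of cyt1l was 2266, 1441 and 1197 FPKM in the controls and 1755, 1236 and 1455 FPKM after 6PPD. The groups overlapped for both genes, with DMSO replicate 1 highest and DMSO replicate 3 or 6PPD replicate 2 lowest. The log2 fold change was -0.31 ± 0.22 for cyt1 (95% interval -0.80 to 0.18, limma adjusted p = 0.454) and -0.10 ± 0.23 for cyt1l (-0.61 to 0.41, adjusted p = 0.826). That of cyt1l was 0.16 without DMSO replicate 1, 0.06 after quantile normalization and 0.02 without 6PPD replicate 2. How fragments that match both copies were assigned is not known, so the split between cyt1 and cyt1l is uncertain.

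**Figure D2:**
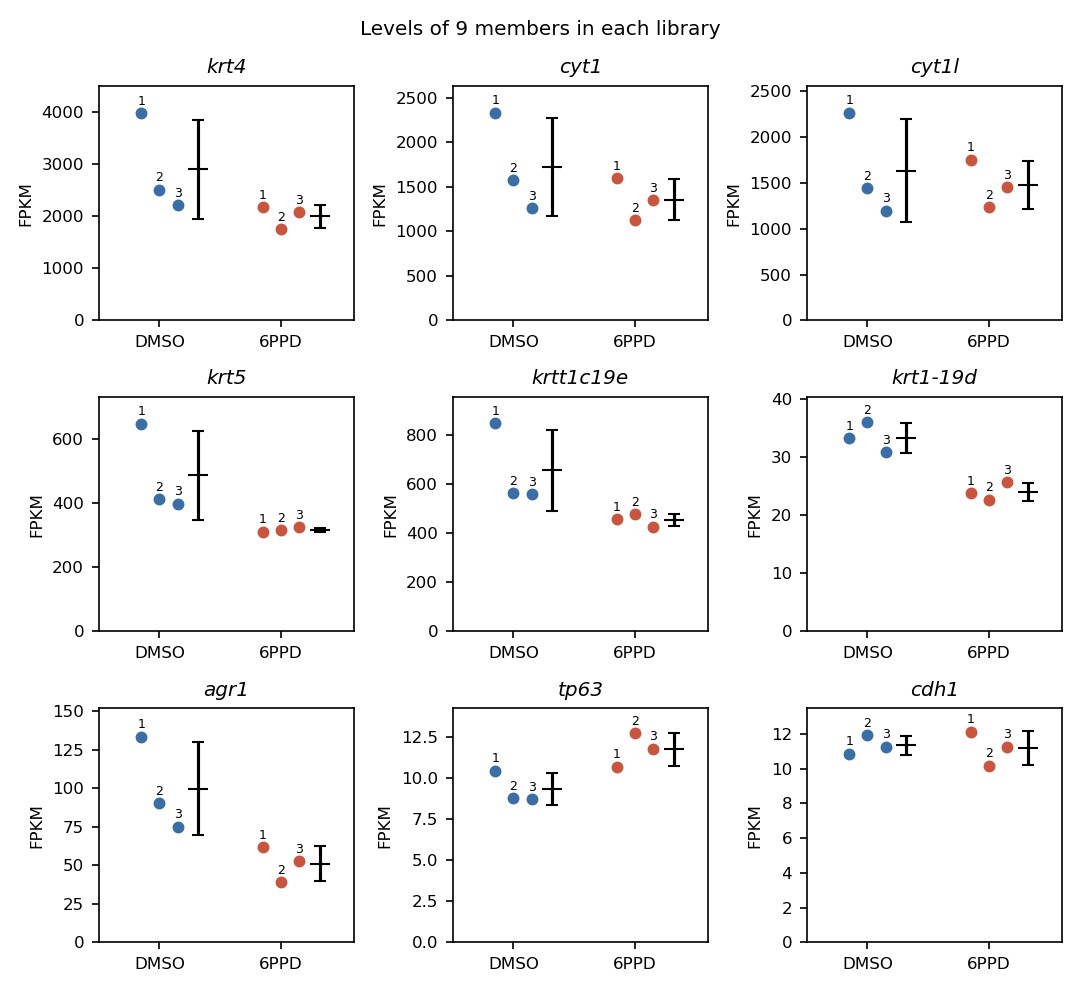
FPKM of 9 members in each library (points, numbered by replicate; blue DMSO, red 6PPD), with mean and SD of 3 libraries beside them and vertical axes from 0. In the panels of krt4, cyt1, cyt1l, krt5, krtt1c19e and agr1 the highest point is DMSO replicate 1. The 2 groups overlap for cyt1, cyt1l and cdh1 only, and for krt4 their nearest points are almost equal. All 6PPD points of tp63 lie above the controls, and cdh1 lies between 10.18 and 12.1 FPKM throughout.

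The keratin cluster of chromosome 19 spans 56.1 kb (5324653 to 5380770) and holds 7 member genes with no other row of the table between them. Every gene of it is on the minus strand, all 7 were tested, and all 7 had a negative log2 fold change with a median of -0.31, except that cyt1l turned positive after quantile normalization, and cyt1l (0.16) and krt91 (0.06) without DMSO replicate 1. At an unadjusted limma p under 0.05, 4 of the 7 were lower and 0 higher (background 6.93% lower and 13.4% higher). By limma adjusted p 1 of the 7 fell (background 1.15% of all genes). That gene was krt1-19d (ENSDARG00000023082, 5324653 to 5332784), a type I keratin at one end of the cluster. It measured 33.3, 36.1 and 30.9 FPKM in DMSO replicates 1 to 3 and 23.8, 22.7 and 25.7 FPKM after 6PPD replicates 1 to 3. It is among the few members whose highest control was not DMSO replicate 1, and its controls differed by 1.17-fold. Its log2 fold change was -0.46 ± 0.09 (limma adjusted p = 0.0257), and -0.46 without DMSO replicate 1 with adjusted p = 0.0514. Over the 15 other settings the adjusted p ranged from 0.0207 to 0.107.

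The neighbouring gene krtt1c19e (5339364 to 5345932), a type I keratin used as a marker of basal skin cells, measured 846, 563 and 557 FPKM in the controls and 456, 477 and 426 FPKM after 6PPD. All 6PPD libraries lay below the controls, and the log2 fold change of -0.50 ± 0.16 was not called (limma adjusted p = 0.117). At the other end of the cluster krt91 (5378563 to 5380770) measured 649.8, 405 and 426 FPKM in the controls and 427, 455 and 418 FPKM after 6PPD, so that only DMSO replicate 1 stood out (log2 fold change -0.15 ± 0.16, adjusted p = 0.619). The gene krt17 measured 48.9, 34.0 and 21.7 FPKM in the controls and 22.2, 12.8 and 17.0 FPKM after 6PPD. It had the widest control range of all tested members, 2.25-fold, and a log2 fold change of -0.93 ± 0.26 (adjusted p = 0.0929, and 0.0227 without DMSO replicate 3). For krt92 the means were 43.1 ± 7.13 FPKM in the controls and 34.4 ± 4.48 FPKM after 6PPD (SD, n = 3), and the groups overlapped.

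Among the keratins of other chromosomes, 11 of 16 were tested and 10 were negative. By limma 0 were called (background 1.15% lower and 2.26% higher). At an unadjusted limma p under 0.05, 5 were lower and 0 higher (background 6.93% lower and 13.4% higher). The type II skin keratin gene krt5 (ENSDARG00000058371, chromosome 23, 10173196 to 10177458) measured 648, 413 and 399 FPKM in the controls and 311, 315 and 325 FPKM after 6PPD. The 6PPD libraries differed by 1.04-fold and all lay below the controls, which differed by 1.63-fold. Its log2 fold change was -0.58 ± 0.17 (limma adjusted p = 0.0963), -0.36 without DMSO replicate 1 (adjusted p = 0.0745) and -0.70 without DMSO replicate 3 (adjusted p = 0.0405). The pair krt8 and krt18a.1, which form the filaments of simple epithelia, lie on chromosome 23 as well. Their log2 fold changes were smaller: krt8 measured 219, 175 and 172 FPKM in the controls and 169.6, 158 and 180.1 FPKM after 6PPD (-0.15 ± 0.11, 95% interval -0.39 to 0.09), and krt18a.1 174, 143 and 127 FPKM in the controls and 137, 117 and 134 FPKM after 6PPD (-0.18 ± 0.12, -0.45 to 0.08). Both overlapped between groups, with limma adjusted p = 0.459 and 0.413. The duplicate krt18b measured 56.5 ± 5.81 FPKM in the controls and 48.4 ± 5.199 FPKM after 6PPD.

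Keratins at lower levels were mostly lower after 6PPD as well, without passing the test. The means in DMSO and 6PPD were 22.2 ± 5.03 and 16.1 ± 1.99 FPKM for krt15 (adjusted p = 0.17, and 0.0308 without DMSO replicate 3), 8.97 ± 0.934 and 6.70 ± 0.461 FPKM for krt1-c5, and 6.99 ± 1.04 and 5.49 ± 0.622 FPKM for krt94. For krt97 they were 42.0 ± 14.1 and 34.8 ± 0.753 FPKM, where DMSO replicate 1 at 58.1 FPKM stood far above the others (log2 fold change -0.22, and 0.04 without it). The gene krt96 measured 1.86 ± 0.610 and 1.48 ± 0.177 FPKM, and krt222, the keratin with a positive log2 fold change (0.09, and -0.01 after quantile normalization), 2.90 ± 0.421 and 3.13 ± 0.251 FPKM. Of the 5 keratins under the filter, krt99 measured 1.36, 1.27 and 0.704 FPKM in the controls and 0.711, 0.625 and 0.749 FPKM after 6PPD. The genes krt93, krt98 and krt18a.2 stayed at or below 0.0958 FPKM in every library, and krt95 is listed at 0 in all 6.

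**Figure D3:**
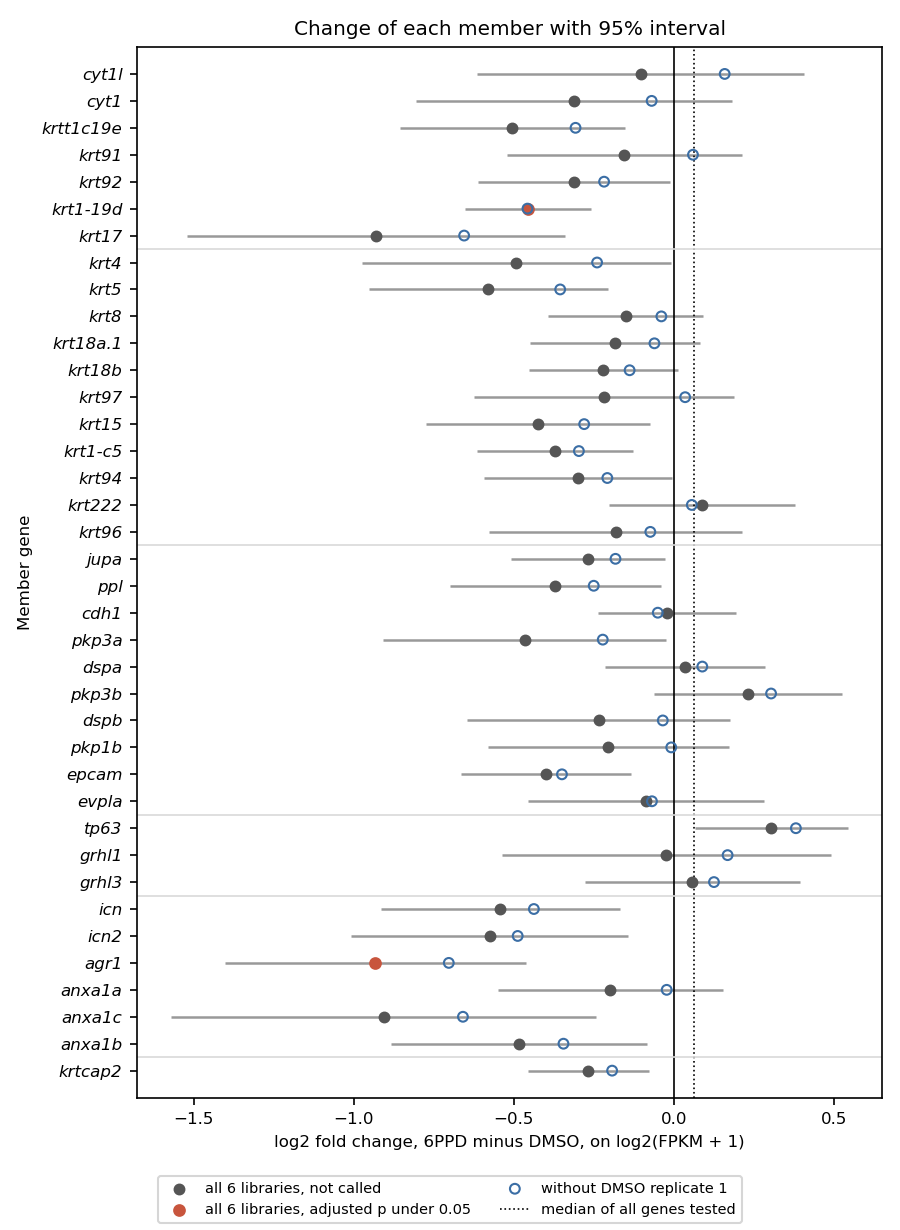
Log2 fold change of each tested member (points; 6PPD minus DMSO on log2(FPKM + 1)) with its 95% interval from limma (lines), the same value without DMSO replicate 1 (open circles), 0 (solid line) and the median of all genes tested, 0.06 (dotted line). The 2 members called, krt1-19d and agr1, are red; most open circles lie nearer to 0 than their points, while krt1-19d stays at -0.46 and tp63 moves away from 0.

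Because the keratin level of DMSO replicate 1 exceeded that of the others as a whole, each keratin was also expressed as its share of the summed keratin FPKM of its own library, a measure chosen after the values had been seen. The summed keratin level was 11419.5, 7472 and 6564 FPKM in DMSO replicates 1 to 3 and 7231, 5816 and 6564 FPKM after 6PPD replicates 1 to 3. On this scale DMSO replicate 1 fell in with its group for krt4, cyt1 and cyt1l, but not for every keratin. The share of krt4 was 34.8%, 33.6% and 33.7% in DMSO and 30.1%, 30.2% and 31.6% in 6PPD. The share of cyt1l was 19.8%, 19.3% and 18.2% in DMSO and 24.3%, 21.2% and 22.2% in 6PPD, so the groups did not overlap for either gene, in opposite directions. The share of cyt1 overlapped, at 20.2% ± 0.958 in DMSO and 20.7% ± 1.32 in 6PPD (SD, n = 3). The share of krt5 was lower in 6PPD (5.76% ± 0.283 against 4.89% ± 0.561), as was that of krt17 (0.405% ± 0.0652 against 0.262% ± 0.0428), both without overlap. The share of krt1-19d, the keratin called on FPKM levels, overlapped. It was 0.292%, 0.483% and 0.471% in DMSO replicates 1 to 3 and 0.329%, 0.390% and 0.392% in 6PPD. For krt1-19d, and for krt8 at 1.92%, DMSO replicate 1 had the lowest share of the 6 libraries. Of the 18 tested keratins 3 lay below, 1 above and 14 overlapped. For FPKM levels, 9.18% of all genes tested lay below and 17.1% above, so separations of this kind were frequent. A background for shares was not computed. Shares within a sum move against each other, and with 3 libraries per group an exact permutation test cannot go below p = 0.10 two-sided, so no test was made.

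Ratios of 10 pairs within each library, also chosen after their values were seen, differed less between controls than the levels did in several cases. The ratio of cyt1l to cyt1 was 0.972, 0.914 and 0.949 in DMSO replicates 1 to 3 and 1.1003, 1.09 and 1.08 in 6PPD replicates 1 to 3. That of krtt1c19e to krt91 was 1.30, 1.39 and 1.31 in DMSO and 1.07, 1.05 and 1.02 in 6PPD. That of krt5 to krt8 was 2.96, 2.36 and 2.31 in DMSO and 1.84, 1.99 and 1.80 in 6PPD. In each of these 3 ratios the groups did not overlap, and in the first and second the controls differed by less than the gap between groups. The groups were also apart for krt4 to cyt1, krt4 to cdh1, tp63 to krt5 and anxa1c to anxa1a. How often pairs of other genes separate was not computed, and the split between cyt1l and cyt1 is uncertain, as stated above. By contrast krt18a.1 to krt8 overlapped, at 0.782 ± 0.0404 in DMSO and 0.764 ± 0.0372 in 6PPD, as did krt17 to krt91 and icn to icn2. A ratio shows unequal change of its 2 genes and not which of them changed.

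**Figure D4:**
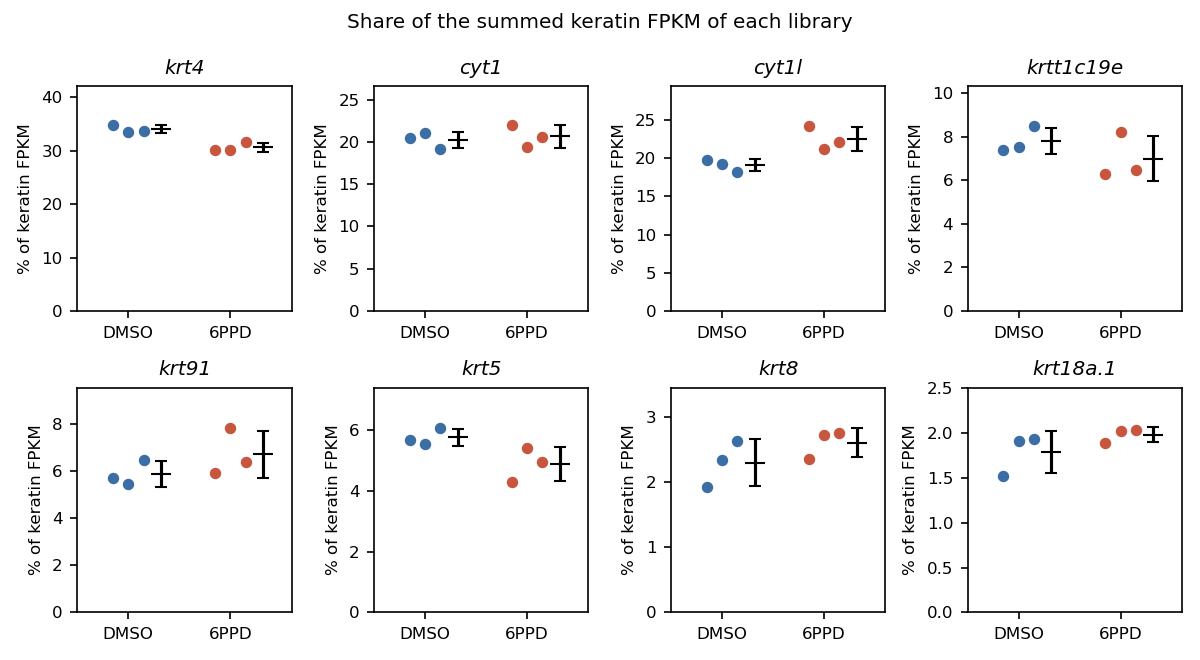
Share of each of 8 keratins in the summed keratin FPKM of its library, in percent (points; blue DMSO, red 6PPD), with mean and SD of 3 libraries and vertical axes from 0. The shares of krt4 and krt5 are lower and that of cyt1l is higher in 6PPD without overlap, and the other 5 overlap.

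Of the 12 plakin and junction genes 10 were tested and 0 were called by limma (background 1.15% lower and 2.26% higher). At an unadjusted limma p under 0.05, 4 were lower and 0 higher (background 6.93% lower and 13.4% higher). The median log2 fold change of this group was -0.22, as for the keratins of other chromosomes. The E-cadherin gene cdh1, the main adhesion molecule of epithelia, measured 10.9, 11.9 and 11.3 FPKM in the controls and 12.1, 10.18 and 11.3 FPKM after 6PPD. These 6 values lay within 1 range, with a log2 fold change of -0.02 ± 0.10 (95% interval -0.24 to 0.20, limma adjusted p = 0.918) whose sign changed after rescaling to TPM. The periplakin gene ppl measured 18.2, 14.3 and 13.5 FPKM in the controls and 13.4, 9.29 and 12.3 FPKM after 6PPD, without overlap but with the nearest values almost equal (-0.37 ± 0.15, adjusted p = 0.196). The gene epcam, for an epithelial adhesion molecule, measured 5.32, 4.78 and 4.61 FPKM in the controls and 3.85, 3.15 and 3.43 FPKM after 6PPD. Its groups were clearly apart and its controls differed by 1.15-fold, but it was not called (-0.40 ± 0.12, adjusted p = 0.103).

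The 2 desmoplakin genes, whose product ties keratin to the desmosome, overlapped between groups. Their means in DMSO and 6PPD were 7.35 ± 0.680 and 7.55 ± 0.726 FPKM for dspa, and 5.03 ± 1.56 and 4.04 ± 0.636 FPKM for dspb. The log2 fold change of dspa, 0.03 ± 0.11, was -0.04 after median-ratio scaling and -0.02 after quantile normalization. The plakoglobin gene jupa, shared by desmosomes and adherens junctions, measured 47.2, 37.1 and 41.6 FPKM in the controls and 35.8, 30.8 and 37.2 FPKM after 6PPD (-0.27 ± 0.11, limma adjusted p = 0.201). Its copy jupb stayed at or below 0.636 FPKM in every library and was not tested. The plakophilin genes, for armadillo-repeat proteins of the desmosomal plaque, did not share a sign. The gene pkp3a measured 17.7, 9.29 and 11.3 FPKM in the controls and 10.0, 7.58 and 8.52 FPKM after 6PPD (-0.47 ± 0.20, adjusted p = 0.223). Its copy pkp3b measured 4.73, 3.41 and 4.50 FPKM in the controls and 5.48, 4.81 and 4.98 FPKM after 6PPD, where all 6PPD libraries lay above the controls (0.23 ± 0.13, adjusted p = 0.353). The gene pkp1b measured 4.83 ± 1.48 FPKM in the controls and 3.96 ± 0.0744 FPKM after 6PPD, and pkp1a, which stayed at or below 0.440 FPKM, was not tested. The envoplakin gene evpla was near the filter, at 1.23 ± 0.279 FPKM in the controls and 1.11 ± 0.346 FPKM after 6PPD.

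Of the 3 transcription factor genes none was called by limma (background 1.15% lower and 2.26% higher). At an unadjusted limma p under 0.05, 0 were lower and 1 higher (background 6.93% lower and 13.4% higher). The gene tp63 (ENSDARG00000044356, chromosome 6, 28795780 to 28914225) encodes p63, which basal skin cells require. It measured 10.4, 8.79 and 8.73 FPKM in the controls and 10.7, 12.7 and 11.8 FPKM after 6PPD, all above the controls. Its log2 fold change was 0.30 ± 0.11 (95% interval 0.06 to 0.54, adjusted p = 0.154), 0.38 without DMSO replicate 1 (adjusted p = 0.108) and 0.23 after median-ratio scaling. It reached its highest level in 6PPD replicate 2, the library that was the lowest of the 6PPD group for 30 other members. The Grainyhead-like genes grhl1 and grhl3 overlapped between groups, at 3.72 ± 1.34 and 3.58 ± 0.961 FPKM in the controls and 6PPD for grhl1, and 1.90 ± 0.248 and 2.04 ± 0.451 FPKM for grhl3 (adjusted p = 0.962 and 0.853). The log2 fold changes of both changed sign between settings.

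The calcium-binding and secretory group had the lowest sum relative to DMSO of the role groups, 65.3% of the DMSO mean and 73.3% of the mean of DMSO replicates 2 and 3. All 6 genes were tested and negative, also under each scaling, with a median log2 fold change of -0.56. At an unadjusted limma p under 0.05, 5 were lower (background 6.93%). The gene agr1 (ENSDARG00000060682, chromosome 9, 45591239 to 45603009), for an anterior gradient protein of the secretory pathway, was the 1 of 6 that fell (background 1.15% of all genes). It measured 134, 90.4 and 75.2 FPKM in the controls and 61.8, 39.0 and 52.5 FPKM after 6PPD, so all 6PPD libraries were below the controls although the controls differed by 1.78-fold. Its log2 fold change was -0.93 ± 0.21 (limma adjusted p = 0.0453), -0.70 without DMSO replicate 1 (adjusted p = 0.0745) and -1.11 without DMSO replicate 3 (adjusted p = 0.0246).

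The ictacalcin genes icn and icn2, for S100-type calcium-binding proteins, lie within 0.1 Mb of each other on chromosome 16. The level of icn was 175, 173 and 114 FPKM in the controls and 123, 93.3 and 97.1 FPKM after 6PPD, and that of icn2 was 106, 113 and 68.8 FPKM in the controls and 79.4, 56.6 and 54.7 FPKM after 6PPD. In both, DMSO replicate 3 lay below 6PPD replicate 1 and so overlapped the 6PPD group, while DMSO replicates 1 and 2 were above all 6PPD libraries. Their log2 fold changes were -0.54 ± 0.17 and -0.58 ± 0.19 (limma adjusted p = 0.115 and 0.139), and the adjusted p was 0.0178 and 0.0253 without DMSO replicate 3. The annexin A1 genes encode calcium-dependent binders of membrane phospholipid. The gene anxa1c measured 96.3, 69.8 and 46.7 FPKM in the controls and 49.4, 22.5 and 41.1 FPKM after 6PPD (-0.91 ± 0.30, adjusted p = 0.131, and 0.0486 without DMSO replicate 3). Its neighbour anxa1b measured 53.1 ± 9.97 FPKM in the controls and 38.1 ± 9.76 FPKM after 6PPD, and anxa1a, elsewhere on chromosome 5, 69.9 ± 16.3 and 60.1 ± 8.57 FPKM (-0.20 ± 0.16, adjusted p = 0.501). The ratio of anxa1c to anxa1a was 1.09, 1.08 and 0.823 in DMSO and 0.714, 0.431 and 0.697 in 6PPD, without overlap. The gene krtcap2, which encodes a subunit of the oligosaccharyltransferase complex, measured 61.6, 53.5 and 52.0 FPKM in the controls and 46.8, 45.6 and 45.6 FPKM after 6PPD (-0.27 ± 0.08, adjusted p = 0.121).

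Other genes of surface epithelium, from lists that leave out the members, were compared in the same fit. Of 14 tight junction genes 3 fell (background 1.15% of all genes), the claudin genes cldnb (-1.14, limma adjusted p = 0.000493), cldn7b (-0.50, adjusted p = 0.0336) and cldne (-0.46, adjusted p = 0.047). The level of cldnb was 72.4, 71.4 and 63.0 FPKM in the controls and 30.2, 32.3 and 29.4 FPKM after 6PPD, so its controls did not follow the excess of keratins in DMSO replicate 1. Of 13 further transcription and splicing factor genes, tfap2c, for an AP-2 factor of ectoderm, fell (-0.53, adjusted p = 0.0217). At an unadjusted limma p under 0.05, 5 of 14 tight junction genes (35.7%) and 5 of these 13 (38.5%) were lower, and 0 and 0 higher. All 6PPD libraries lay below all DMSO libraries for 6 (42.9%) and 5 (38.5%), against 28.9% of the members and 9.18% of all genes. They lay above them for 0 and 1 (background 17.1%). Of 17 envelope and surface genes, 11 junction genes and 9 genes of basal adhesion, 0 were called by limma. At an unadjusted limma p under 0.05 (background 6.93% lower and 13.4% higher), these lists had 4, 2 and 2 genes lower and 0, 1 and 0 higher. Their summed levels in 6PPD were 91.4%, 97.5% and 84.0% of the DMSO mean, against 77.0% for the keratins and 73.0% for the tight junction genes. Relative to DMSO replicates 2 and 3 alone these values were 98.4%, 102.1% and 93.5%. The keratins, at 93.2%, were then level with basal adhesion, and the tight junction genes were at 74.9%. The sum of the further factor genes was 88.5% of the DMSO mean and 89.0% of the mean of DMSO replicates 2 and 3. Single genes weigh on these sums. The junction sum had means of 429.6 FPKM in DMSO and 418.7 FPKM after 6PPD, of which ctnnb1 alone made up 320.6 and 323.2 FPKM. The tight junction sum had means of 269.5 and 196.7 FPKM, of which cldnb made up 68.9 and 30.6 FPKM.

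Markers of other tissues moved with the libraries in their own ways. The sum of 15 neuron markers was 1945 to 2149 FPKM in DMSO, lowest in replicate 1, and 2195 to 2405 FPKM after 6PPD. Of the 15 genes, 10 had a positive and 5 a negative log2 fold change, with a median of 0.14. Among them snap25a (0.40) and elavl3 (0.64) rose (limma adjusted p = 0.0328 and 0.0324, background 2.26%) and 0 fell (background 1.15%). At an unadjusted limma p under 0.05, 5 neuron genes were higher and 0 lower (background 13.4% and 6.93%). All 6PPD libraries lay above all DMSO libraries for 6 neuron genes and below for 0 (background 17.1% and 9.18%). The related genes snap25b (-0.23) and elavl4 (-0.34) were negative and not called (adjusted p = 0.271 and 0.37). The sum of 10 red blood cell markers was 1457 to 1974 FPKM in DMSO, highest in replicate 1, and 1608 to 1690.5 FPKM after 6PPD. The sum of the lens list was 2993 to 3799 FPKM in the controls and 2744 to 4102 FPKM after 6PPD, with the top value in 6PPD replicate 2. Muscle summed to 559 to 594 and 416 to 641 FPKM, cartilage to 469 to 607 and 487 to 568 FPKM, fibroblasts to 711 to 905 and 692 to 782 FPKM, ionocytes to 99.5 to 109 and 93.1 to 105 FPKM, and mucous cells to 26.4 to 43.0 and 17.3 to 31.2 FPKM, in DMSO and 6PPD respectively. Of these lists 0 genes were called by limma in lens, muscle, cartilage, red blood cells, fibroblasts, ionocytes and mucous cells. At an unadjusted limma p under 0.05, 0, 2, 0, 2, 2, 0 and 0 of their genes were lower (background 6.93%). By the same threshold 1, 0, 0, 0, 0, 1 and 0 were higher (background 13.4%). The ionocyte sum was mostly 1 gene, atp6v1aa, with means of 90.7 of 105.6 FPKM in DMSO and 83.2 of 99.7 FPKM after 6PPD. The mucous cell sum was mostly agr2, with means of 28.7 of 32.1 FPKM in DMSO and 20.7 of 23.3 FPKM after 6PPD. Only 5 of 13 ionocyte genes and 3 of 8 mucous cell genes were tested. The sensory placode list, which shares cldnb with the tight junction list, summed to 127 to 144 FPKM in the controls and 95.8 to 96.7 FPKM after 6PPD. In it 2 of 9 tested genes fell (background 1.15%), cldnb and pou4f3 (-0.69, limma adjusted p = 0.0491), and 0 rose (background 2.26%). At an unadjusted limma p under 0.05 the counts were 2 lower and 0 higher (background 6.93% and 13.4%). Most of the drop in the sum was cldnb, with means of 68.9 FPKM in the controls and 30.6 FPKM after 6PPD, where the list had 136.5 and 96.1 FPKM. The median log2 fold change of this list was -0.02, with 5 of 9 tested genes negative and 4 positive. The part of tissue makeup in the values of the members was not tested.

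**Figure D5:**
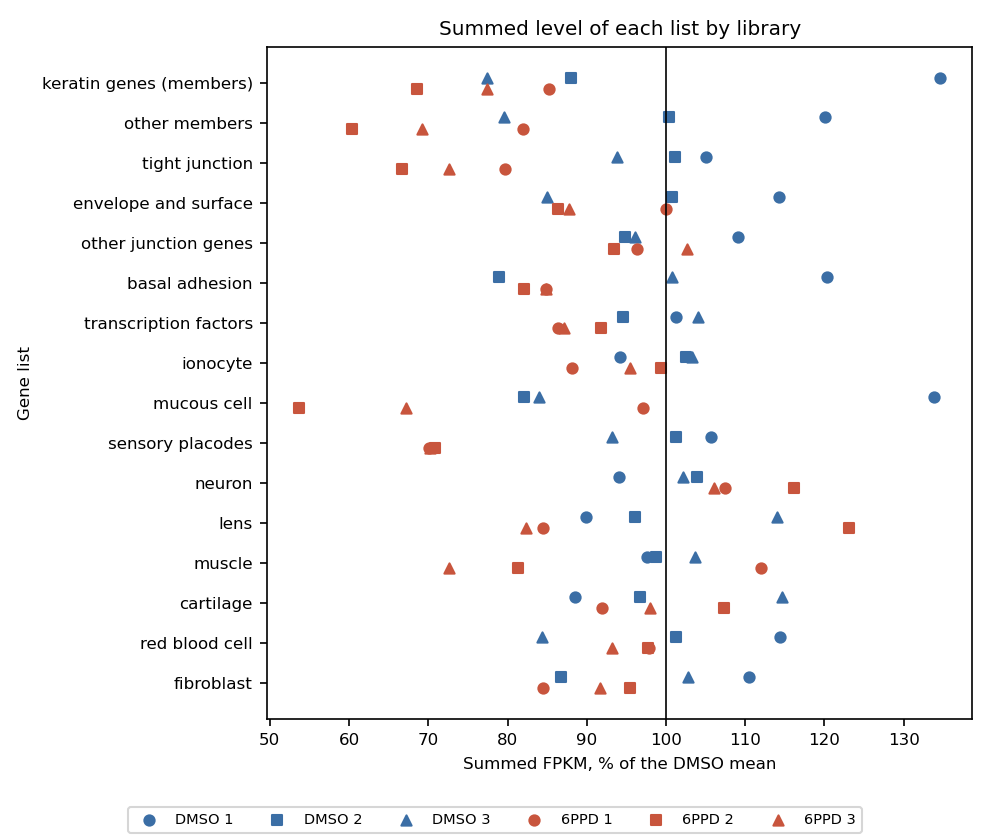
Summed FPKM of 16 gene lists in each library as percent of the DMSO mean of that list (points; blue DMSO, red 6PPD, marker shape for the replicate; the line marks 100%). DMSO replicate 1 lies farthest to the right of the line for the keratins and mucous cells. It is also the highest library for other members, tight junction, envelope and surface, other junction, basal adhesion, sensory placode, red blood cell and fibroblast lists. The 6PPD libraries lie left of all DMSO libraries for tight junction genes, transcription factors and sensory placodes, and right of them for neurons. The drop of the sensory placode list is mostly that of cldnb. The mucous cell sum is mostly agr2, and the ionocyte sum is mostly atp6v1aa.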

How the data were processed

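The authors' deposited table gives 1 FPKM value per gene and library. Per the submitters' processing notes, StringTie, featureCounts, HISAT2 and fastp were used with the build GRCz11, with no role or order stated. Whether counting used strand is not given. Read totals were not used here, so depth is unknown and no counting interval is given. Symbols and GRCz11 positions are those of the deposited table.

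The 15320 genes averaging 1 FPKM or more over the 6 libraries entered a limma fit (version 3.58.1, R version 4.3.3) of log2(FPKM + 1), with moderated variances that follow mean level, 6PPD against DMSO and no further terms, and the Benjamini-Hochberg adjusted p over all of them had to be under 0.05. The pseudocount understates changes of low genes. The procedure was tested on simulated data. The members and lists were chosen with earlier results of these data known. Genes named in full were the called members, the 3 most abundant of each role group, the 5 with the widest control range, and every tested junction and transcription factor gene; of other lists, up to 4 called genes. The planned protein and promoter comparisons were not run, since sequences were not used here. The replicates are separate pools of heads. Further members were named after their values were seen. Alternatives were other pseudocounts, filters and scalings, no trend, a replicate block, and each library left out.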

Additional observations from a re-analysis of the deposited data

How the results depend on the processing

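The number of members called lower was 2 under both other pseudocounts, a filter at 5 FPKM, TPM, median-ratio and quantile scaling. It was 0 with no filter and without the intensity trend (limma), where 0.0482% and 0.79% of all genes were called lower. In these 2 fits 12 of 44 and 16 of 38 tested members were lower and 1 and 1 higher at an unadjusted limma p under 0.05. The share of all genes at that threshold is not given for these fits. With 1 library left out the number of members called lower ranged from 0 to 8, where 0.471% to 2.13% of all genes were called lower. In no setting was a member called higher. Whether the replicate numbers pair the samples is not known. The correlations of same-numbered deviations were 0.0301, 0.181 and -0.0257, which with 3 libraries per group cannot decide it. With the replicate block 2 members were called lower by limma, agr1 and krt17, while krt1-19d had adjusted p = 0.0523. Negative members numbered 31 of 38 after TPM, 34 after median-ratio and 35 after quantile scaling. The median of all genes was then 0.115, -0.0067 and 0.006. The median of the members ranged from -0.35 to -0.16 over all settings. Among all genes tested, 176 were called lower and 346 higher, and with no filter 13 and 13. The number higher was 214 without the trend and 204 after median-ratio scaling, and with 1 library left out the counts ranged from 72 to 325 lower and 85 to 805 higher. The share of higher calls was 66.3%, and 45.5% after median-ratio and 52.9% after quantile scaling. Uncalled members changed sign in some settings. Without DMSO replicate 1 krt91 was 0.06 and krt97 0.04, and with quantile normalization krt222 was -0.01. The log2 fold change of cdh1 was 0.0264 with TPM and ranged from -0.0757 to 0.0401 with 1 library left out. That of cyt1l was 0.0626 with quantile normalization and ranged from -0.30 to 0.16. That of dspa was -0.0388 with median-ratio scaling and -0.0245 with quantile normalization and ranged from -0.0321 to 0.0891. That of grhl1 was 0.0204 with TPM and ranged from -0.26 to 0.17. That of grhl3 was -0.0286 with quantile normalization and ranged from -0.0448 to 0.17. The causes were not tested. Each such fit has fewer libraries. Read depth is unknown.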
